A study of Mus musculus with 42 samples.

Results

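Chemokines, interleukins, tumour necrosis factor (TNF) relatives and colony-stimulating factors (CSFs) are the secreted signals by which tumour cells, stromal cells and leukocytes address each other, and their receptors decide which cells answer. A gene was included if its symbol in the platform annotation began with Ccl, Cxcl, Ccr, Cxcr, Il or Csf and a digit, or with Tnfsf or Tnfrsf, and if it had values on both arrays of at least 15 of 21 tumours. The array carried 139 genes with such symbols, and 34 of them (24.5%) met this measurement minimum, against 7629 of 15096 genes (50.5%) over the whole array. The 34 were 7 CC chemokines, 2 CXC chemokines, 2 chemokine receptors, 5 interleukins, 8 interleukin receptors, 9 members of the TNF receptor superfamily and 1 CSF receptor. None of the 9 TNF superfamily ligands and neither of the 2 CSF genes on the array met it, and Il4i1, an amino acid oxidase whose symbol fits the same pattern, did not either. The platform names are symbols of its own date, and they were used as given.

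RNA came from 21 mammary tumours of mice that carried the c-Myc transgene of the strain FVB/N-Tg(WapMyc)212Bri, in which the promoter of the milk protein gene Wap drives Myc in mammary epithelium. Tumour lines had been selected in living mice into a glandular type, a solid or comedo type without lung metastases, the same type with lung metastases, and a spindle-cell type. All 21 tumours share the transgene, no normal mammary gland was included, and the labels give each tumour's number but not its line, its host or an age. The comparison possible here is therefore between the 21 tumours, each hybridised on 2 dye-swapped arrays against a universal mouse reference RNA.

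Chemokines bind seven-transmembrane receptors and set the direction in which leukocytes migrate. Those of the CC family mainly draw monocytes, macrophages, eosinophils and T cells, and those of the CXC family draw neutrophils or lymphocytes. Interleukins and CSFs act on receptor chains that signal through JAK kinases and STAT factors or through adaptors that lead to NF-kappaB, and the TNF receptor superfamily signals survival, inflammation or cell death. In mammary tumours, macrophages recruited by such signals are a well-known part of the stroma.

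Values are log2 ratios of tumour over reference after each array was turned to a common dye orientation and centred on its own median, so that 0 is the typical gene of an array. The overall sign is not settled by the sources used here: it was set so that Myc was positive, and with the opposite choice every value below changes sign and every highest tumour becomes the lowest. An array gave 8600 to 21328 measured probes of 22800. Before turning, the 2 arrays of a tumour had a negative r over probes in 20 of 21 tumours, the sign a dye swap gives. Tumour 656 was the exception (r = 0.074). The lowest r was -0.564, but several lay near 0: -0.0572 in tumour 639, -0.0609 in tumour 647, -0.0615 in tumour 660 and -0.0919 in tumour 646. Each tumour mean carries the standard error of a mean of 2 arrays, and p-values of limma's moderated F test measure the error between hybridisations of 1 RNA, not the spread between animals. The RNA was of whole tumours, so fewer cells of a type and less RNA per cell cannot be told apart.

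Of the 34 genes, 12 differed between tumours with a Benjamini-Hochberg adjusted p of at most 0.05 over all genes (35.3%), beside 1445 of 7629 genes on the array (18.9%). The CC chemokines made up 6 of these 12, the TNF receptor superfamily 3, and the CXC chemokines, interleukins and CSF receptors 1 each. Neither chemokine receptor and none of the 8 interleukin receptors passed in limma, 1 of those 8 at an unadjusted p under 0.05, although 1 and 4 of them passed with dye orientation as a covariate. With that covariate, 21 of the 34 genes passed, beside 45.1% of all genes: the 12 above and Tnfrsf21, Il17b, Il11ra2, Il6st, Cxcr4, Il1rn, Il1rap, Il17rc and Cxcl10. The fit also takes in tumours that had a value on 1 array only, while the ranges and tumour numbers below are of tumours with both arrays. With the single-array tumours left out of the fit, 9 of the 34 genes passed, beside 18.4% of all genes, and the calls of Ccl27a, Cxcl16 and Il16 ended. The standard deviation of tumour means had a median of 0.99 over the 34 genes, 1.36 over the CC chemokines and 0.69 over all genes. The share of variance that lay between tumours, the intraclass correlation, had a median of 0.33 over the 34 genes, 0.74 over the CC chemokines and 0.18 over all genes.

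**Figure D1:**
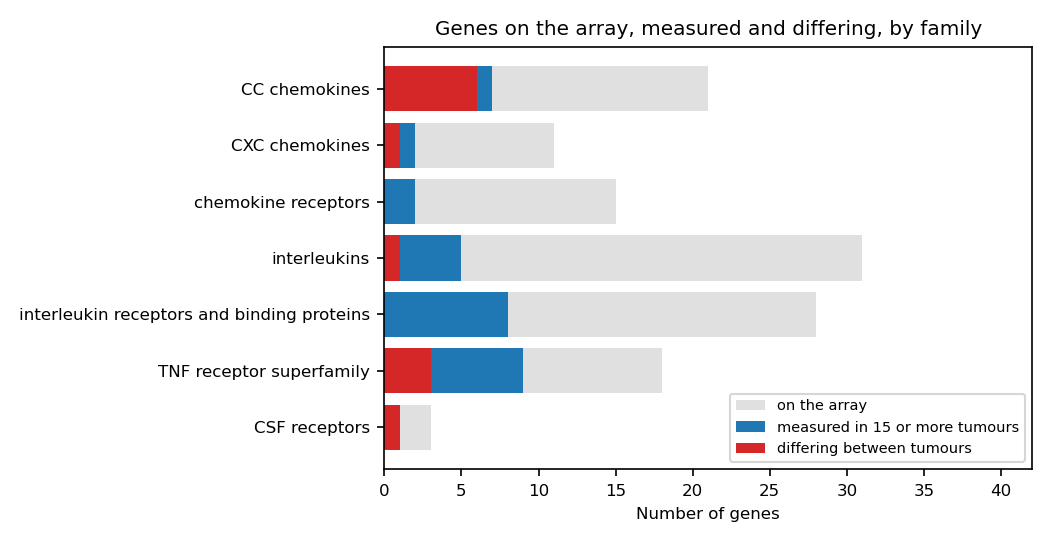
Number of genes per family on the array (grey), measured on both arrays of at least 15 tumours (blue) and differing between tumours at an adjusted p of at most 0.05 (red), drawn over each other from 0. Of the 7 CC chemokines measured 6 differed, and none of the 8 interleukin receptors did. The TNF superfamily ligands and the CSF genes, with none measured, are not drawn.

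Ccl6, a chemokine of myeloid cells that acts on the receptor CCR1, differed most clearly. Its tumour means ran from -2.02 in tumour 664 (arrays -2.03 and -2.00) over a median of 0.59 to 5.62 in tumour 673 (arrays 4.99 and 6.24), with a standard error of 0.48 over 17 tumours (adjusted p = 1.7e-05, limma). Tumours 673, 649, 644, 646 and 647 were the 5 highest, and the lowest of them, at 3.51, stood above the sixth, tumour 643, at 1.91. No single array of those 5 tumours overlapped the rest, the lowest reading 3.45 and the highest array elsewhere 2.56.

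Ccl9, the related chemokine known for its action on osteoclast precursors through the same receptor, was highest in these 5 tumours as well. Its values ran from -2.42 in tumour 669 (arrays -3.74 and -1.10) over a median of -0.35 to 2.93 in tumour 646 (arrays 3.13 and 2.73), with a standard error of 0.60 over 20 tumours (adjusted p = 8.4e-04, limma). The fifth tumour, 644, lay at 1.93 and the sixth, 663, at 0.44. Here too the single arrays did not overlap, with 1.59 the lowest array of the 5 tumours and 0.82 the highest of the others. On its sole array tumour 667 read -3.91, below the range of tumours with both arrays. With single-array tumours left out, the adjusted p of Ccl9 was 0.00138 in limma.

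Ccl6 and Ccl9 are neighbouring protein-coding genes on mouse chromosome 11, and their levels had a Pearson r of 0.78 over 17 tumours. The 250 bases before each start site are shown because these 2 genes set the same 5 tumours apart on every array. They were taken from RefSeq on GRCm38.p6, at chr11:83593088-83593337 for Ccl6 and chr11:83578637-83578886 for Ccl9, both on the minus strand. Capitals mark matches, on either strand, to AGGAAG (ETS factors), TGANTCA (AP-1), TTCNNNGAA (STAT factors) and the degenerate consensus of NF-kappaB.
Ccl6: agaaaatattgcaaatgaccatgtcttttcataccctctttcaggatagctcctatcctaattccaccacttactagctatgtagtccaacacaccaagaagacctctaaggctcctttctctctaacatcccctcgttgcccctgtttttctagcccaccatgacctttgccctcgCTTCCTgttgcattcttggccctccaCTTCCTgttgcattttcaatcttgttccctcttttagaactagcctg
Ccl9: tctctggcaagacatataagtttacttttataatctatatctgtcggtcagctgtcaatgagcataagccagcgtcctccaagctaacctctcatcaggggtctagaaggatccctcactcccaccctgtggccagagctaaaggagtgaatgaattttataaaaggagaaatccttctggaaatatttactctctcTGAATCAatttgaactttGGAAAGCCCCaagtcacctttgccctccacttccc
The Ccl6 window held 2 ETS matches and none of the other motifs, and the Ccl9 window held 1 AP-1 and 1 NF-kappaB match. The longest run of letters shared by both windows on this strand was gccctccacttcc, of 13 bases, which began 55 bases before the Ccl6 start and 14 bases before the Ccl9 start. A RefSeq promoter window was found for 24 of the 34 genes. Of those 24, 12 held an ETS match (32.3% of 27025 genes did), 6 an AP-1 match (7.82%), 2 a STAT match (8.13%) and 4 an NF-kappaB match (8.23%). Among the 8 differing genes with a window these counts were 6, 3, 2 and 2. A match describes letters in the window and does not show that a factor binds there.

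Ccl11, or eotaxin, which attracts eosinophils, was low in nearly every tumour and had the same 5 tumours at the top. It ran from -5.56 in tumour 664 (arrays -5.46 and -5.66) over a median of -1.54 to 0.17 in tumour 649 (arrays 0.06 and 0.28), with a standard error of 0.46 over 17 tumours (adjusted p = 0.00107, limma). The fifth tumour, 644, was at -0.64 and the sixth, 669, at -1.20, with single arrays that overlapped by a narrow margin (-0.70 against -0.66). A repeated top value was set missing in these data, and with it kept as a measurement the adjusted p of Ccl11 was 0.425.

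Ccl2, the main attractant of monocytes, was measured in all 21 tumours, from -3.46 in tumour 667 (arrays -2.75 and -4.17) over a median of -0.98 to 0.90 in tumour 649 (arrays 1.12 and 0.69), with a standard error of 0.52 (adjusted p = 0.00213, limma). Tumours 646 at 0.50 and 673 at 0.04 were the others above 0. Tumours 644 and 647, among the highest for Ccl6 and Ccl9, lay at -1.21 and -0.83, close to the median, so the Ccl2 order differed from theirs.

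Ccl7, which shares the receptor CCR2 with Ccl2, was measured on both arrays of 15 tumours. There it ran from -3.58 in tumour 663 (arrays -3.18 and -3.98) over a median of -0.91 to 1.73 in tumour 649 (arrays 1.95 and 1.52), with a standard error of 0.56 (adjusted p = 0.0189, limma). Tumours 673 at 1.27 and 646 at 1.17 followed, and the next, 647, lay at -0.33. As with Ccl2, 3 tumours stood above 0 and they were the same 3 for both genes. On its sole array tumour 667 read -5.49 for Ccl7, below that range. With single-array tumours left out, the adjusted p of Ccl7 was 0.0181 in limma.

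Ccl27a, a chemokine of skin epithelium that attracts T cells, did not share this order. Over tumours with both arrays its range was narrow, from -1.04 in tumour 638 (arrays -1.45 and -0.64) over a median of -0.07 to 1.37 in tumour 669 (arrays 0.68 and 2.05), with a standard error of 0.48 over 15 tumours (adjusted p = 0.0277, limma). None of the 5 tumours highest for Ccl6 was among its 5 highest. Tumours with 1 array lay outside that range, at 3.81 in tumour 667, 2.76 in tumour 656 and -1.42 in tumour 664. The call rests on such arrays: the adjusted p was 0.263 with single-array tumours left out, 0.123 without replicate 1 of tumour 667, its sole array, and 0.0582 without replicate 2 of tumour 669. It was 0.353 with the top value kept.

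Ccl4, an attractant of T cells and monocytes, was the CC chemokine that did not pass (adjusted p = 0.526, limma). Its values ran from -2.93 in tumour 647 over a median of -0.80 to 0.80 in tumour 669, with a standard error of 0.84 over 19 tumours. Across tumours Ccl4 had an r of -0.67 with Ccl6 (16 tumours), -0.56 with Ccl9 (19) and -0.43 with Ccl11 (16), whereas Ccl6, Ccl7, Ccl9 and Ccl11 had r between 0.61 and 0.81 with each other (14 to 17 tumours). Ccl2 had an r of 0.68 with Ccl9 and 0.64 with Ccl7, but 0.39 with Ccl6 and 0.37 with Ccl11. These correlations describe genes that share arrays and reference, and carry no test. Their median was 0.37 over the 21 pairs of CC chemokines, 0.16 over the 561 pairs of the 34 genes and 0.07 over all pairs of genes.

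**Figure D2:**
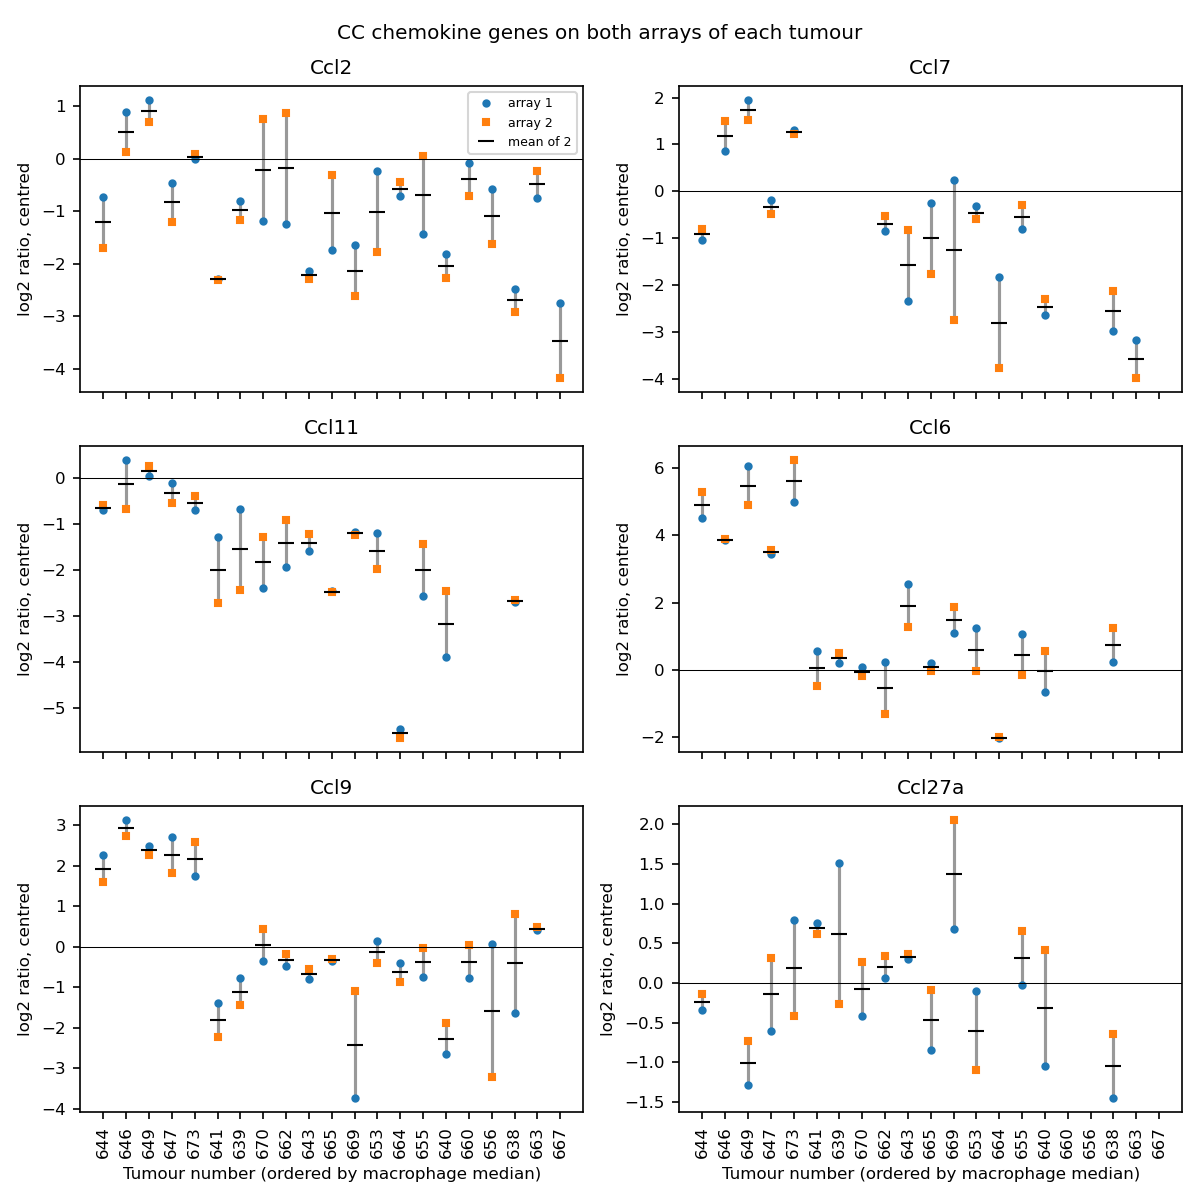
Centred log2 ratio to the reference of each CC chemokine that differed between tumours, on both arrays of each tumour (circle and square) with their mean (bar). Tumours are ordered from left to right by the median of the macrophage markers, highest first. For Ccl6 and Ccl9 the 5 leftmost tumours lie above all others on both arrays, and for Ccl27a they do not. Ccl4, which did not pass, is not drawn.

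Cxcl16, a membrane-bound chemokine that is shed to attract T cells and also serves as a scavenger receptor, differed between tumours with a wide error. It ran from -1.30 in tumour 664 (arrays -2.96 and 0.36) over a median of 1.43 to 3.10 in tumour 673 (arrays 3.37 and 2.82), with a standard error of 0.76 over 15 tumours (adjusted p = 0.0173, limma). Tumours 673, 644, 639, 649 and 641 were the highest, and 13 of 15 tumours lay above 0. Tumour 663 read -6.01 on its sole array, below that range, and without this array the adjusted p was 0.21. It was 0.156 with all single-array tumours left out. The interferon-induced Cxcl10, an attractant of activated T cells, had values between -3.11 in tumour 663 and 0.79 in tumour 669 and did not pass (adjusted p = 0.35, limma, and 0.0399 with dye orientation as a covariate).

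Of the chemokine receptors, Ccr2, the receptor of Ccl2 and Ccl7 on inflammatory monocytes, had values from -0.25 in tumour 662 over a median of 1.16 to 3.16 in tumour 649 (arrays 4.11 and 2.20), with a standard error of 0.88 over 18 tumours. It did not pass (adjusted p = 0.322, limma, and 0.0465 without replicate 1 of tumour 663), and its intraclass correlation was 0.08. On its sole array tumour 660 read -1.01 for Ccr2, below that range. Cxcr4, the receptor of the stromal chemokine Cxcl12, ran from -2.83 in tumour 669 (arrays -4.56 and -1.10) over a median of -0.37 to 0.88 in tumour 662 (arrays -0.03 and 1.78), with a standard error of 0.60 over 19 tumours. Its adjusted p was 0.284 on the deposited scale, 0.0141 once arrays were centred and 0.0105 with dye orientation as a covariate. On its sole array tumour 667 read -3.33 for Cxcr4, below the range of tumours with both arrays.

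The interleukin that passed was Il16, a ligand of CD4 that is cut from a larger precursor in lymphocytes. It ran from -3.00 in tumour 638 (arrays -2.85 and -3.15) over a median of -1.06 to 0.25 in tumour 662 (arrays -0.25 and 0.76), with a standard error of 0.48 over 15 tumours (adjusted p = 0.0137, limma). Among tumours with both arrays, its highest, 662, 660, 655, 639 and 670, included none of the 5 highest for Ccl6. Of those 5, however, tumours 646 and 647 had a value on 1 array only. Tumour 647 read 0.01 there, above tumour 660 at -0.10, and tumour 646 read -1.06. Tumour 667 read -6.51 on its sole array, below that range, and without this array the adjusted p was 0.19. It was 0.227 with all single-array tumours left out and 0.867 with the top value kept.

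Il17b, an epithelial member of the interleukin-17 family, had a range wider than that of most genes here but did not pass (adjusted p = 0.134, limma). It ran from -1.87 in tumour 647 (arrays -3.87 and 0.14) over a median of 0.72 to 4.78 in tumour 656 (arrays 6.02 and 3.55), with a standard error of 0.88 over 19 tumours. Its adjusted p was 0.00657 with dye orientation as a covariate, 0.0383 without replicate 2 of tumour 647 and 0.0426 without replicate 2 of tumour 660. Il1rn, the natural antagonist of the interleukin-1 receptor, stayed between -1.16 in tumour 664 and 0.61 in tumour 646 over tumours with both arrays. On its sole array tumour 667 read -2.41. The adjusted p of Il1rn in limma was 0.223, or 0.0304 without replicate 2 of tumour 660 and 0.0244 with dye orientation as a covariate. Il13, a cytokine of type 2 immunity, reached 2.10 in tumour 639 on arrays that read 4.36 and -0.16. Il15, which sustains natural killer cells, lay between -1.45 in tumour 660 and 0.09 in tumour 639. The spread of Il15 between the 2 arrays of a tumour exceeded that between tumours, with an intraclass correlation of -0.37.

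Among interleukin receptors, Il6st, the signal-transducing chain shared by the receptors of interleukin-6 and its relatives, came nearest to the threshold (adjusted p = 0.0692, limma). It ran from -3.94 in tumour 641 (arrays -2.75 and -5.14) over a median of -1.65 to 0.54 in tumour 646 (arrays 0.49 and 0.59), with a standard error of 0.54 over 19 tumours, and its 2 probes had an r of 0.77. Its adjusted p was 0.00376 after centring, 0.00795 with dye orientation as a covariate and 1.0e-05 with the top value kept. It also passed when any 1 of 7 arrays of tumours 639, 643, 660 and 663 was left out, at 0.0214 to 0.0458. Tumours 646, 647, 673, 649 and 644 were its 5 highest, the same 5 as for Ccl6, with the fifth at -0.45 and the sixth at -0.98, while tumour 656 read -0.16 on its sole array.

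Il3ra, the alpha chain of the interleukin-3 receptor, ran from -3.33 in tumour 641 to 2.28 in tumour 673 with a standard error of 1.07 over 20 tumours (adjusted p = 0.512, limma). Il17rc, a chain of the interleukin-17 receptor, ran from -3.71 in tumour 638 to 0.96 in tumour 647 with a standard error of 0.91 over 17 tumours (adjusted p = 0.612, limma). The large ranges of these 2 genes went with large errors between arrays. Il17rc had an adjusted p of 0.039 with dye orientation as a covariate and 7.3e-05 with the top value kept.

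The other interleukin receptor genes were Il1rap, the accessory chain of the interleukin-1 receptor (adjusted p = 0.209), Il11ra2, a receptor of interleukin-11 (0.262), Il10rb (0.685), Il15ra (0.859) and Il2ra (0.988). Il1rap passed after centring (0.0424) and with dye orientation as a covariate (0.0303), and Il11ra2 with that covariate (0.00729). Their probes were not uniform: the 2 probes of Il10rb had an r of -0.65 and those of Il2ra one of 0.16 over 21 tumours, so a mean over them says little. Il15ra read -6.24 and 2.57 on the 2 arrays of tumour 660.

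Of the 9 TNF receptor genes, Tnfrsf12a set the same 5 tumours apart by tumour mean. It encodes the receptor of the cytokine TWEAK and is known to be induced in injured and migrating cells. It ran from -3.51 in tumour 656 (arrays -1.85 and -5.16) over a median of -0.97 to 0.91 in tumour 646 (arrays 1.21 and 0.61), with a standard error of 0.50 over 21 tumours (adjusted p = 0.0041, limma). Tumours 646, 649, 673, 647 and 644 lay above 0, at 0.38 or more, and the other 16 lay below 0, the nearest being tumour 670 at -0.38. Single arrays overlapped, the lowest of those 5 tumours reading 0.16 and the highest elsewhere 0.54.

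Tnfrsf1b, the TNF receptor found mainly on immune and endothelial cells, was above 0 in the same 5 of the tumours with both arrays. It ran from -2.52 in tumour 643 (arrays -3.53 and -1.52) over a median of -1.50 to 1.85 in tumour 647 (arrays 2.29 and 1.42), with a standard error of 0.58 over 15 tumours (adjusted p = 0.0105, limma). Tumours 647, 649, 644, 646 and 673 were above 0, the last at 0.11, and the other 10 below, the nearest at -0.13. Tumour 667, with 1 array, read higher than any of them, at 2.69, and tumour 664 lower, at -3.23. With single-array tumours left out the adjusted p was 0.016. Among tumours with both arrays the single arrays overlapped, the lowest of those 5 tumours reading -0.08 and the highest elsewhere 0.76.

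Tnfrsf1a, the widely expressed TNF receptor with a death domain, varied less, from -1.05 in tumour 664 (arrays -0.52 and -1.58) over a median of -0.24 to 1.30 in tumour 646 (arrays 1.70 and 0.89). Its standard error was 0.39 over 21 tumours (adjusted p = 0.0181, limma). Tumours 646, 647, 656, 649 and 673 were the highest, and in tumour 656 the arrays lay far apart.

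The other 6 TNF receptor genes did not pass in limma. They were Tnfrsf22 (adjusted p = 0.184) and Tnfrsf23 (0.483), mouse decoy receptors of the death ligand TRAIL, Tnfrsf10b (0.726), its signalling receptor, Tnfrsf21 (0.319), a death-domain receptor, Tnfrsf11a (0.685), the receptor RANK of mammary and osteoclast development, and Tnfrsf4 (0.994), a T-cell costimulatory receptor. With dye orientation as a covariate Tnfrsf21 had an adjusted p of 0.00465, with values from -0.14 in tumour 664 to 2.05 in tumour 647 (arrays 2.32 and 1.78).

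Csf2ra, the alpha chain of the receptor for granulocyte-macrophage CSF, was the CSF receptor measured. It ran from -1.96 in tumour 664 (arrays -3.13 and -0.79) over a median of 0.32 to 2.64 in tumour 649 (arrays 2.53 and 2.75), with a standard error of 0.58 over 19 tumours (adjusted p = 0.0199, limma). Tumours 649, 647, 646, 644, 656 and 673 lay at 1.87 or above, and the next, tumour 653, lay at 0.45. With the top value kept, its adjusted p was 0.542.

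**Figure D3:**
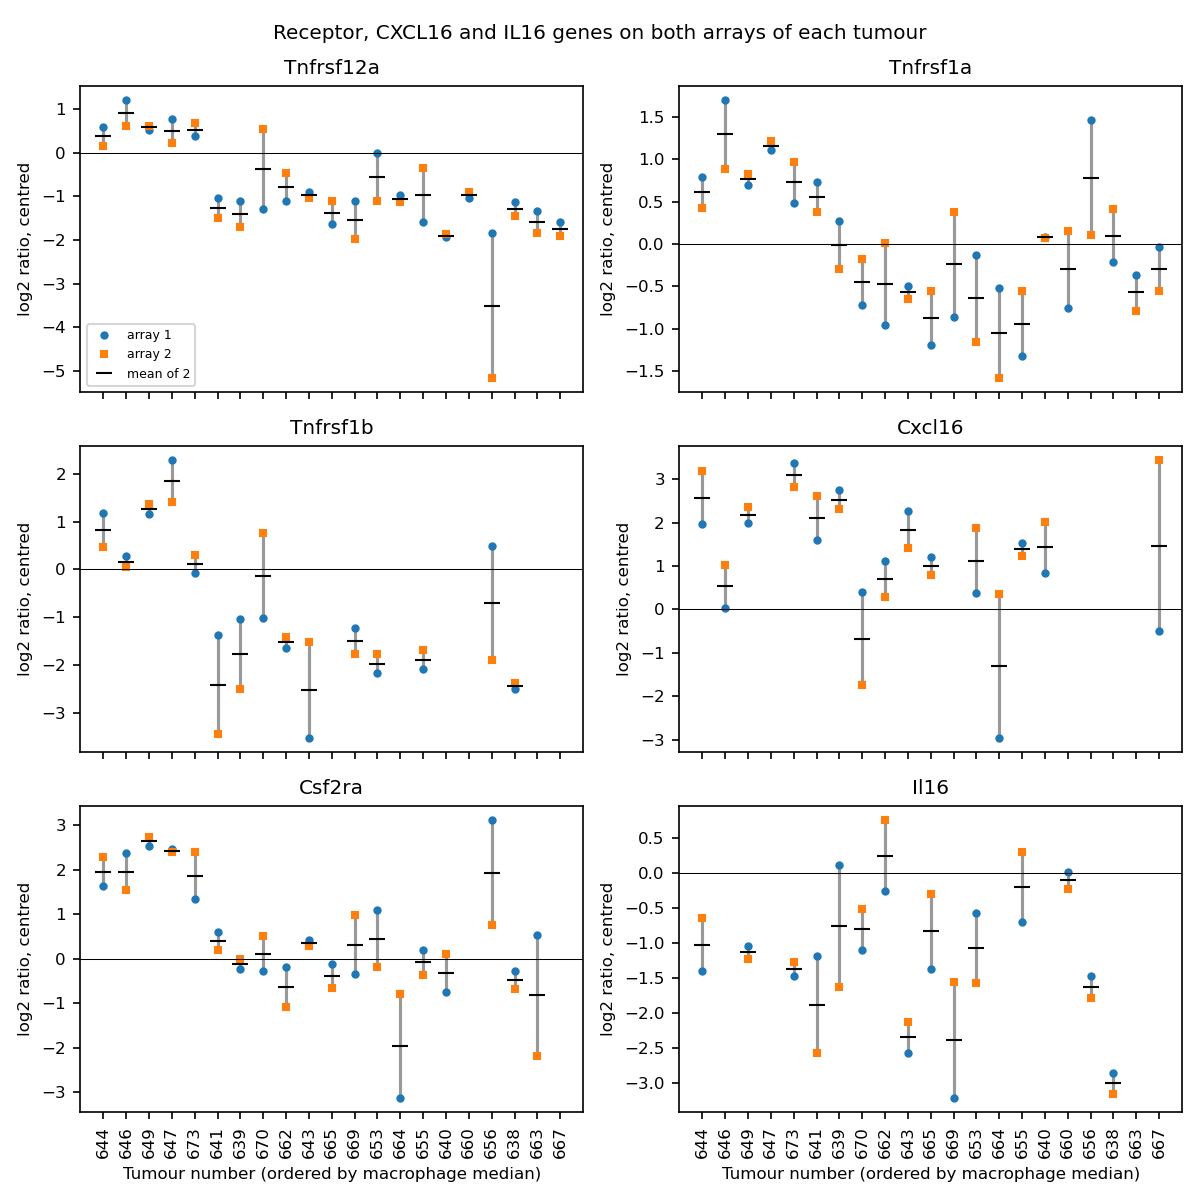
Centred log2 ratio to the reference on both arrays of each tumour (circle and square, bar for the mean) for the 6 genes outside the CC family that differed between tumours, in the same tumour order as for the CC chemokines. Tnfrsf12a and Tnfrsf1b lie above 0 on the mean in the 5 leftmost tumours, and Cxcl16 and Il16 show no such division. A tumour is blank for a gene where a value is missing on either array.

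Tumours 649, 646, 673, 647 and 644 recurred at the top of these genes. Among the 12 differing genes, tumour 649 was one of the 5 highest for 10, tumours 646 and 673 for 9, tumour 647 for 8 and tumour 644 for 7, and each other tumour for 3 or fewer. At the other end, tumour 638 was among the 5 lowest for 7 genes and tumours 640 and 664 for 6. Of all 34 genes, 6 had exactly these 5 as their highest among tumours with both arrays (17.6%), namely Ccl6, Ccl9, Ccl11, Tnfrsf12a, Tnfrsf1b and Il6st, beside 497 of 7629 genes on the array (6.51%). At least 4 of the 5 were among the highest for 13 of the 34 genes (38.2%), beside 14.4% of all genes. For other genes, such as Cxcl10 and Il17b, none of the 5 was. For these counts the 5 were taken as the tumours with the highest median of macrophage markers, given below. They are the same 5 that recurred above, so these shares are a description and not a test.

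The median of macrophage markers was highest in the same 5 tumours. Of 16 markers 13 were measured and 10 differed. The median level of the 13 was 1.74 in tumour 644, 1.71 in tumour 646, 1.63 in tumour 649, 1.62 in tumour 647 and 0.86 in tumour 673, against -1.65 to 0.80 in the other 16. Tumours 641 and 639, at 0.80 and 0.78, came close to tumour 673. Their Ccl6 lay at 0.04 and 0.36, against 5.62 in tumour 673, while Cxcl16 and Ccl27a had both among their 5 highest tumours. C1qa, a complement subunit typical of tissue macrophages, ranged from 0.70 to 4.38 and Fcer1g, an Fc receptor chain, from -4.71 to 1.68. The same 5 tumours also had the 5 highest medians of 8 mesenchymal markers, 0.65 to 2.28 against -3.72 to -1.73 in the others, and the 5 lowest medians of 10 epithelial markers, -1.06 to 0.50 against 0.93 or more in the others. The part of either cell type in the cytokine values was not tested. Of the T and NK cell markers 3 of 14 were measured and 0 differed (limma, 1 at an unadjusted p under 0.05), of the B cell markers 1 of 8 and 1 differed, of the neutrophil markers 2 of 9 and 1 differed, and of the endothelial markers 4 of 10 and 0 differed (limma, 2 at an unadjusted p under 0.05). With dye orientation as a covariate 0 of the 3 T and NK cell markers and 3 of the 4 endothelial markers passed.

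**Figure D4:**
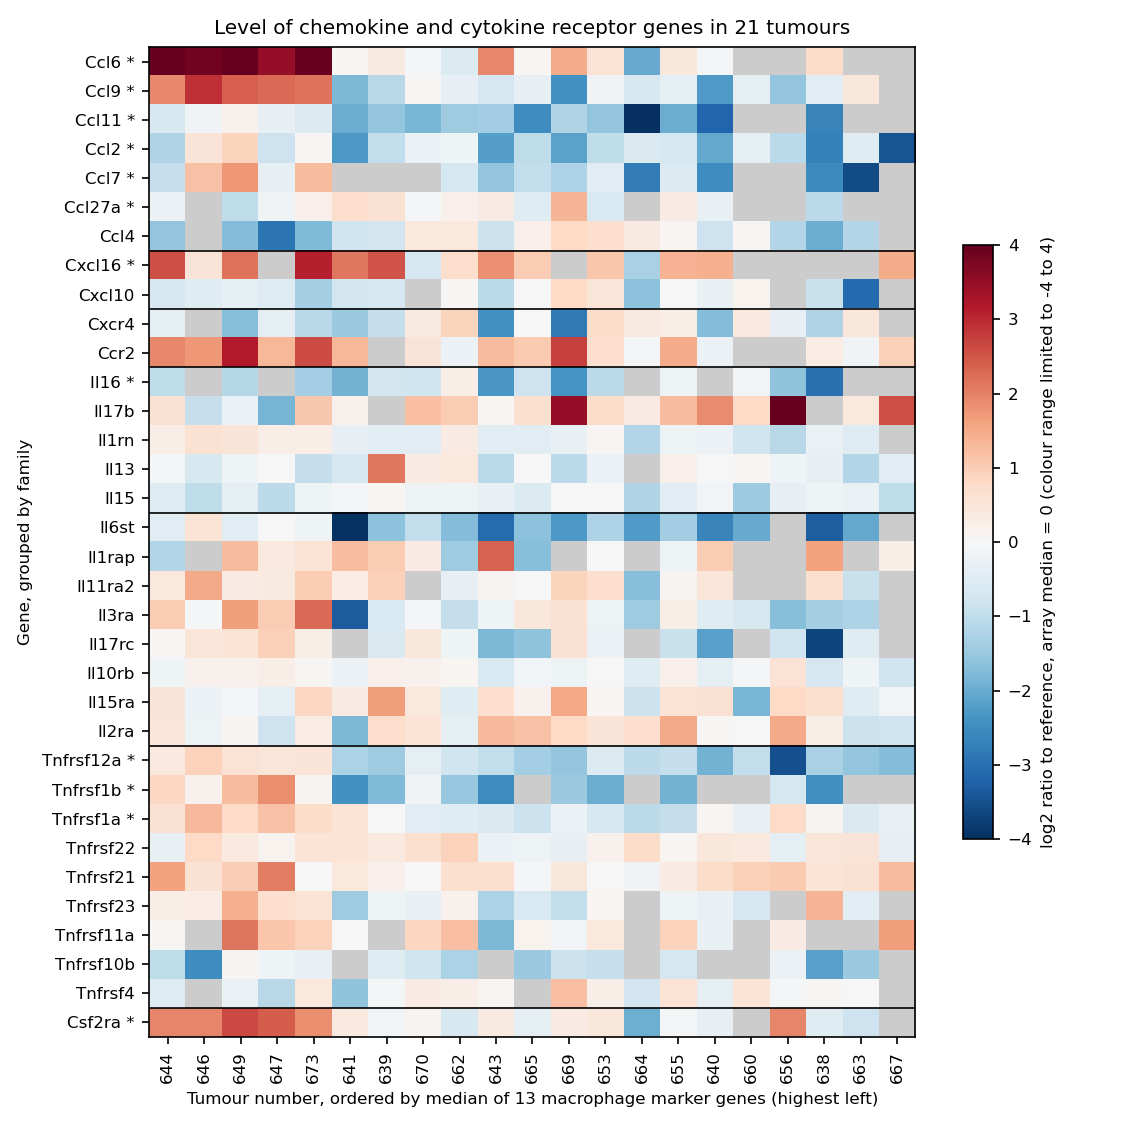
Tumour means of the 34 genes (rows, by family) as centred log2 ratios to the reference, in 21 tumours (columns, ordered by the macrophage median, highest first). Cells are left blank where a value is missing on either array of a tumour. Ccl6, Ccl9, Tnfrsf12a and Tnfrsf1b are highest in the 5 leftmost columns.

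The array runs differed in which tumours they held. Running numbers in the titles form 3 runs of 9, 13 and 20 arrays. Tumour 644 lay in the first, tumours 647, 649 and 673 in the third and tumour 646 in both, and none of the 5 in the second. With the run as a block in the limma fit, 6 of the 34 genes passed (17.6%), beside 7.68% of all genes: Ccl6 (adjusted p = 5.8e-04), Ccl9 (0.00721), Ccl11 (0.00826), Ccl2 (0.00912), Il16 (0.0282) and Ccl7 (0.0316). The calls of Tnfrsf1b (adjusted p = 0.085), Ccl27a (0.0955), Tnfrsf12a (0.0975), Cxcl16 (0.111), Csf2ra (0.145) and Tnfrsf1a (0.295) ended there. Within the third run alone, with 8 tumours, Ccl6 (adjusted p = 0.00226, limma) and Ccl9 (0.0138) passed. The share of all genes that passed there is not given. Within the first and second runs, with 4 and 5 tumours, 0 of the genes tested there passed in limma.

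Against the reference RNA, the mean over tumours lay above it for 6 of the 34 genes (17.6%) and below it for 12 (35.3%), beside 16.9% and 26.1% of all genes, by limma on tumour means with Benjamini-Hochberg adjustment over all genes. Above it were Ccl6 (mean 1.55, standard error 0.49, adjusted p = 0.0152), Cxcl16 (1.33, 0.28, 8.2e-04), Ccr2 (1.14, 0.23, 4.0e-04), Il17b (0.95, 0.31, 0.0176), Tnfrsf21 (0.62, 0.13, 3.6e-04) and Tnfrsf22 (0.26, 0.10, 0.0382). Cxcl16 was above 0 in 13 of 15 tumours, Ccr2 in 14 of 18 and Tnfrsf21 in 19 of 21. Ccr2 and Il17b did not pass between tumours but stood above the reference in most of them.

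Farthest below were Ccl11, at -1.67 with a standard error of 0.30 and below 0 in 16 of 17 tumours (adjusted p = 1.6e-04, limma), and Il6st, at -1.61 with a standard error of 0.25 and below 0 in 17 of 19 (2.7e-05). Il16 (-1.21, standard error 0.22), Ccl2 (-1.05, 0.22), Tnfrsf10b (-0.96, 0.18), Ccl7 (-0.93, 0.35), Tnfrsf12a (-0.88, 0.21) and Tnfrsf1b (-0.84, 0.33) followed. Ccl4, Cxcr4, Cxcl10 and Il15 lay between -0.66 and -0.45 and also passed. The reference is a pool of RNA from other sources, so these values place the tumours relative to that pool and not to normal mammary gland.

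**Figure D5:**
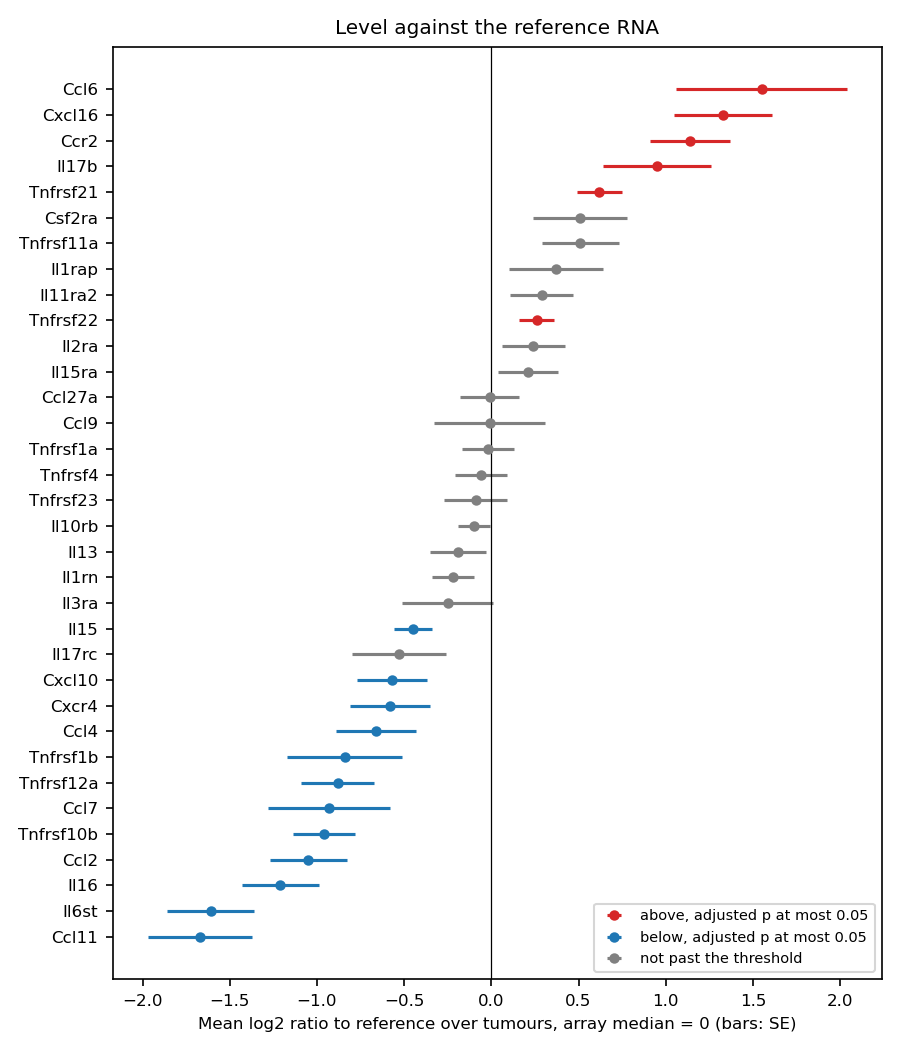
Mean centred log2 ratio to the reference over tumours with both arrays (point) with its standard error (bar) for each of the 34 genes, coloured by whether it lay above (red) or below (blue) the reference at an adjusted p of at most 0.05 or did not pass (grey). Ccl6 is highest at 1.55 and Ccl11 lowest at -1.67. The overall sign is a choice, and turning it mirrors the plot.

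The measured ligand and receptor pairs, chosen from known binding, were 3, with correlations over tumours tested by 100000 permutations, two-sided. Ccl2 and Ccr2 had an r of 0.22 (permutation p = 0.371, also 0.371 after Benjamini-Hochberg adjustment over the 3 pairs) and a rho of 0.13 (permutation p = 0.602) over 18 tumours, and r was 0.01 without the 2 tumours farthest from the Ccl2 median. Ccr2 fell into 2 components in the tumours that had Ccl7, so Ccl7 and Ccr2 were related within the larger one. There r was 0.66 (permutation p = 0.0261) and rho 0.54 (permutation p = 0.0926) over 11 tumours, and the other 4 tumours were too few. Il15 also fell into 2 components, and within the larger, of 16 tumours, Il15 and the chain that presents it, Il15ra, had an r of 0.36 (permutation p = 0.171) and a rho of 0.27 (permutation p = 0.304). The differences between the 2 arrays of a tumour had an r of 0.67 for Il15 and Il15ra over 21 tumours, so their errors moved together, whereas for Ccl7 and Ccr2 that r was -0.30. Over all tumours, with the components ignored, 2 of the 3 pairs passed. With slide run means subtracted none did (permutation test, adjusted p 0.0606, 0.0606 and 0.157). That test left out tumours 646, 660, 664 and 665, whose arrays lay in 2 runs, so the set of tumours changed as well.

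Genes of the same pathways under other names were compared through 3 lists. Of 50 other cytokine and receptor genes 13 were measured and 3 differed (23.1%, beside 18.9% of all genes): Kit, the stem cell factor receptor (from -0.04, tumour 644, up to 3.30, tumour 641, with an adjusted p of 8.0e-04 in limma), Ifngr1, the interferon-gamma receptor chain (-2.09 in tumour 656 to 1.44 in tumour 644, 0.0331), and Lta, the TNF relative lymphotoxin alpha (-0.79 in tumour 656 to 1.86 in tumour 644, 0.0443). Ifngr1 and Lta were thus highest in a tumour that also had high Ccl6, and Kit was lowest there. Of 33 genes of NF-kappaB signalling 20 were measured and 0 passed in limma, 2 at an unadjusted p under 0.05 and 5 with dye orientation as a covariate (25.0%, beside 45.1% of all genes). The lowest adjusted p was 0.0724, for the subunit Nfkb2.

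Of 26 genes of JAK-STAT signalling 19 were measured and 3 differed in limma (15.8%, beside 18.9% of all genes), a share near that of the whole array. The kinase bound to Il6st, Jak1, was lowest at -2.73 in tumour 664 and highest at 0.48 in tumour 646 (adjusted p = 0.00517). Socs3, a feedback inhibitor of that receptor chain, reached from -2.15 (tumour 667) up to 0.45 (tumour 649), with an adjusted p of 0.0207. Socs2, an inhibitor best known in growth hormone signalling, was highest in tumour 656, at 4.45 (adjusted p = 0.00819).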

How the data were processed

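RNA of 21 tumours was measured on 42 two-colour arrays, 2 per tumour, against a reference RNA. The authors deposited log2 ratios, a scale read from the values; the sources used here do not state background correction, normalization or the dye of each array. Of 726515 values, 15512 stood at a repeated top value and were set missing, and 24.1% of cells were blank. The 232 Gapdh control spots were averaged to 1. Each array's orientation followed from a principal axis of the correlations between within-tumour array differences, by the sign of its tumour on that axis (median r after turning 0.402, lowest -0.037), and 21 arrays were turned. Array medians then ran from -1.42 to 1.24. Probes of a gene were averaged, for 16874 probes with 1 symbol.

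Tests between tumours used a linear model per gene with the tumour as a factor and limma's empirical Bayes moderation on the deposited scale (limma 3.58.1, R 4.3.3), all arrays with a value included, with Benjamini-Hochberg adjustment over 7629 genes and a threshold of 0.05. Levels, and tests against the reference on means of tumours with both arrays, used centred arrays. Components came from mclust 6.1.1. The scripts were tested on simulated data. Genes named with full values were those that passed between tumours, the 10 with the largest range, their measured binding partners and a list of well-known cytokine genes. Members and lists were chosen with earlier results of these data known. Alternatives covered centring, quantile normalization, the top value, dye orientation, slide run, moderation, dim probes, the measurement minimum and each array left out. Labels do not say whether tumours came from separate animals.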

Additional observations from a re-analysis of the deposited data

How the results depend on the processing

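The count of 12 genes that differed between tumours was 11 to 15 of 34 with centring (15), quantile normalization (14), the top value kept (11), other moderation (12), without tumour 656 (12) and without dim probes (12), and was 9 with tumours of 1 array left out of the fit, also tried after the data had been seen. It was 21 with dye orientation as a covariate, 6 with slide run as a block, and 0, 0 and 2 within the 3 runs, which hold fewer tumours. With both arrays of all 21 tumours required it was 3 of 8. Leaving out 1 array at a time gave 10, without replicate 1 of tumour 667, to 16, without replicate 2 of tumour 660. Among all genes, 18.9% passed in the main fit, 19.3% with centring and 18.4% with tumours of 1 array left out. The share was 45.1% with dye orientation as a covariate and 7.68% with slide run as a block. Counts under the other settings, and those against the reference within runs, stand without such a share here. Counts above and below the reference, 6 and 12, were 1 and 0 in the first run, 1 and 6 in the second and 3 and 3 in the third, and 7 and 12 with tumours of 1 array kept, which was tried after the data had been seen. With slide run means subtracted, and tumours with arrays in 2 runs left out, 0 of 3 pairs passed by r, against 2 over all tumours. No paired analysis was possible by replicate number, because the replicate numbers only name the 2 arrays of a tumour and pair nothing across tumours. The 2 arrays of a tumour did have opposite dye orientations. The main fit left this pairing out, and the fit with dye orientation as a covariate took it in. Without counts of reads, precision is limited by 2 arrays per tumour and by dim probes.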

Other observations

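With the measurement minimum lowered to both arrays of 10 tumours, 39 further genes of these families came into view. Of them 1 passed in limma, Csf2rb2, a beta chain of the interleukin-3 receptor, whose lowest value was -1.77 (tumour 653) and highest 1.47 (tumour 646, standard error 0.52 over 14 tumours, adjusted p = 0.0337), beside 11.7% of 10119 genes. Csf1, the growth factor of macrophages, lay below the array median wherever it was measured, from -4.26 in tumour 638 to -0.40 in tumour 646 over 13 tumours (adjusted p = 0.127, limma). Cxcl12, the ligand of Cxcr4, was lower still, from -6.26 in tumour 653 to -2.71 in tumour 670 over 10 tumours (0.612). Cxcl1, an attractant of neutrophils, ran from -3.94 in tumour 638 to -1.05 in tumour 639 over 14 tumours (0.744). Tumour 646 held the highest value of both Csf2rb2 and Csf1, as it did for Ccl9, Tnfrsf12a, Tnfrsf1a and Il6st. Il18, a cytokine of the interleukin-1 family, ran from -0.19 in tumour 662 to 2.69 in tumour 649 over 12 tumours (0.756). Ccl5, an attractant of T cells, stayed below the array median in all 14 tumours with both arrays, from -2.79 in tumour 647 to -0.13 in tumour 653 (0.837). These genes are named by textbook role, chosen after their values were seen.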
